A study of Mus musculus with 28 samples.

Results

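The comparison set CD4 T cells of old BALB/c mice, 20 months of age, against those of young mice of the same strain, 4 months of age, after culture on plate-bound antibodies that stimulate CD3 and CD28. It used the 8 of the series' 28 arrays that the labels give to CD4 cells at 4, 12, 24 and 72 h of stimulation, 1 old and 1 young array at each time, and paired them by time. The other arrays used below were those of resting CD4 cells at 0 h, 3 old and 3 young, and of CD8 T cells stimulated for the same 4 times, 4 old and 4 young. Every culture after 0 h received the same antibodies. The labels state that the RNA of each time point was pooled from 4 independent sortings on separate days, so an array is a pool and the spread between animals cannot be read from it. The labels disagree on the sort gate: titles and growth protocol give CD62Llo and CD44hi, descriptions and the series text give CD62Lhi and CD44lo, and all of them call the cells naive.

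A CD4 T cell is activated when its T cell receptor, which signals through the CD3 chains, is engaged together with the costimulatory receptor CD28. Transcription factors of the NFAT, AP-1 and NF-kB families then switch on cytokine genes within hours, and growth and division follow over days. A naive cell makes mainly interleukin 2, whereas cells with effector or memory history can also release lineage cytokines quickly: interferon gamma for type 1 help, and Il4, Il5 and Il13 for type 2 help, the latter under the transcription factor Gata3. Aged T cell pools are known to hold fewer naive and more memory-phenotype cells.

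Levels below are log2 of the array's processed signal minus log2 of that array's 75th percentile, so 0 is the brightness that 75 percent of the probes do not exceed and a difference of 1 is a doubling. On the 8 arrays, 17254 to 25587 of 41174 probes were well above background, the scanner software's own call. The 4 h pair was brighter, its 75th percentiles being 756 and 874 intensity units where the 6 later arrays had 121 to 275. It was also more precise: the median coefficient of variation over probes spotted 10 times was 4.57 to 4.96 percent at 4 h and 16.8 to 22.1 percent later. The 12 h pair was the least even, with a 75th percentile of 121 in old and 275 in young and 17254 and 22574 probes above background. Y-linked transcripts below background on both 12 h arrays read higher in old there, Ddx3y at -4.97 against -7.07 and Eif2s3y at -5.30 against -7.04. Differences of dim genes at 12 h can hold such a shift towards old, and its part in them was not tested. Each old and young pair shared a slide, with the old sample always at position 1 and the young at position 3, so array position and age cannot be told apart. The 8 arrays and 18 of the other 20 carried the X-linked Xist at 2.15 to 4.10, but the young 0 h replicates 1 and 2 carried it at -6.82 and -5.94, with Ddx3y at 1.06 to 1.25 against -7.81 to -3.12 elsewhere. Single genes' differences at rest are therefore given with all 3 young arrays and again from the replicate 3 pair alone.

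The labelled cell type was borne out by the level of Cd4, at -2.54 to 0.010 on the 8 arrays and at -4.56 to -3.20 on the CD8 arrays. It was above background on all 8 CD4 arrays and on 7 CD8 arrays. Cd8a lay at -3.45 to -1.18 on the CD4 arrays and at 5.24 to 6.92 on the CD8 arrays, and Cd8b1 at 1.05 to 4.16 against 7.53 to 8.05. Both were above background on every CD4 array too. Not every CD8 marker separated the cell types, Runx3 lying at -0.83 to 3.00 on CD4 arrays and 0.32 to 1.53 on CD8 arrays. Of 16 B cell markers tested, 6 were higher in old in all 4 pairs and the median difference over those tested was 0.87; the list's summed level, log2 of the summed scaled signal, was 4.11 to 5.28 in old and 3.95 to 4.42 in young. For these counts and those below, 8.91 percent of all genes were higher in old in all 4 pairs and 6.27 percent lower. Single B cell markers did not all share the shift: Cd79a differed by -0.68, Pax5 was above background on 1 of the 8 arrays, and Cd22, Ebf1 and Blk on none. Of 19 myeloid markers 2 were higher and 3 lower in all 4 pairs, with a summed level of 4.83 to 7.30 in old and 5.21 to 7.77 in young and Spi1, Siglech and Clec9a never above background. For natural killer cells the counts were 0 and 0 of 8, with a summed level of 1.68 to 3.52 in old and 1.57 to 2.43 in young, and Klra1, Klre1 and Itga2 were never above background. The innate-like T cell markers had 2 tested, 0 higher and 1 lower, at a summed level of -0.85 to 2.13 in old and 0.017 to 1.97 in young, with Sox13, Blk, Il23r and Klrb1b never above background. The erythroid and platelet markers had 8 tested and 0 in either direction, at 0.016 to 1.32 in old and 0.019 to 1.80 in young, with Ppbp and Gp9 never above background. Of the CD4 T cell markers 2 of 9 were higher and 1 lower in all pairs, and of the CD8 T cell markers 0 and 1 of 8. The part of other cell types in the differences below was not tested. In pooled cultures of this kind, more cells making an mRNA and more mRNA per cell cannot be told apart.

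Old CD4 cells carried more mRNA of the type 2 cytokines Il4 and Il5, of the retroviral antigen transcript Mela, of the secreted phospholipase gene Pla2g5 and of the protein kinase A subunit gene Prkar2a. They carried less of 1 unnamed transcript, AK076876. These were the genes that passed limma's moderated test at an adjusted p under 0.05, Benjamini-Hochberg over 15456 genes: 6 genes, or 0.0388 percent, with 5 higher in old (0.0323 percent) and 1 lower (0.00647 percent). The test read the old minus young difference over the 4 pairs with a separate mean for each time, on 3 residual degrees of freedom per gene. At an unadjusted p under 0.05 it held 683 genes higher in old (4.42 percent) and 334 lower (2.16 percent). Because the 4 pairs stand at different times and no time was repeated, p-values measure how steady a difference was along the time course, and an exact sign-flip test of a single gene over 4 pairs cannot go below 0.125. Leaving out the 12 h pair ended all 6 calls, with the smallest adjusted p at 0.171 and 640 genes at an unadjusted p under 0.05, and leaving out the 24 h pair left Mela alone. With normexp background correction 71 genes passed, and with an intensity trend in limma's variance 29.

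Il4, the interleukin that directs B cells to class switching and T cells to the type 2 fate, measured 5.97, 5.44, 5.21 and 4.45 on the old arrays at 4, 12, 24 and 72 h. On the young arrays it measured 1.12, 0.55, -0.030 and 1.15. Every old array stood above every young array, and the old level was highest at 4 h. The difference was 4.57 ± 0.40 (SE, n = 4 pairs), 23.8-fold, with an adjusted p of 0.0272 in limma's test. Il5, the growth factor of eosinophils, measured 0.17, 0.029, 0.025 and 1.36 in old and -4.96, -5.88, -5.31 and -5.81 in young. Only the 4 h young array held Il5 above background, while all 4 old arrays did, and the gap was widest at 72 h. Its difference was 5.88 ± 0.41 (SE, n = 4 pairs), with a limma adjusted p of 0.0169. The young means lie near the background, so the 59.0-fold ratio that this gives depends on signal that was mostly not well above it. Under normexp background correction the Il5 difference was 2.65 and passed the test, and under quantile normalization Il5 did not pass.

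**Figure D1:**
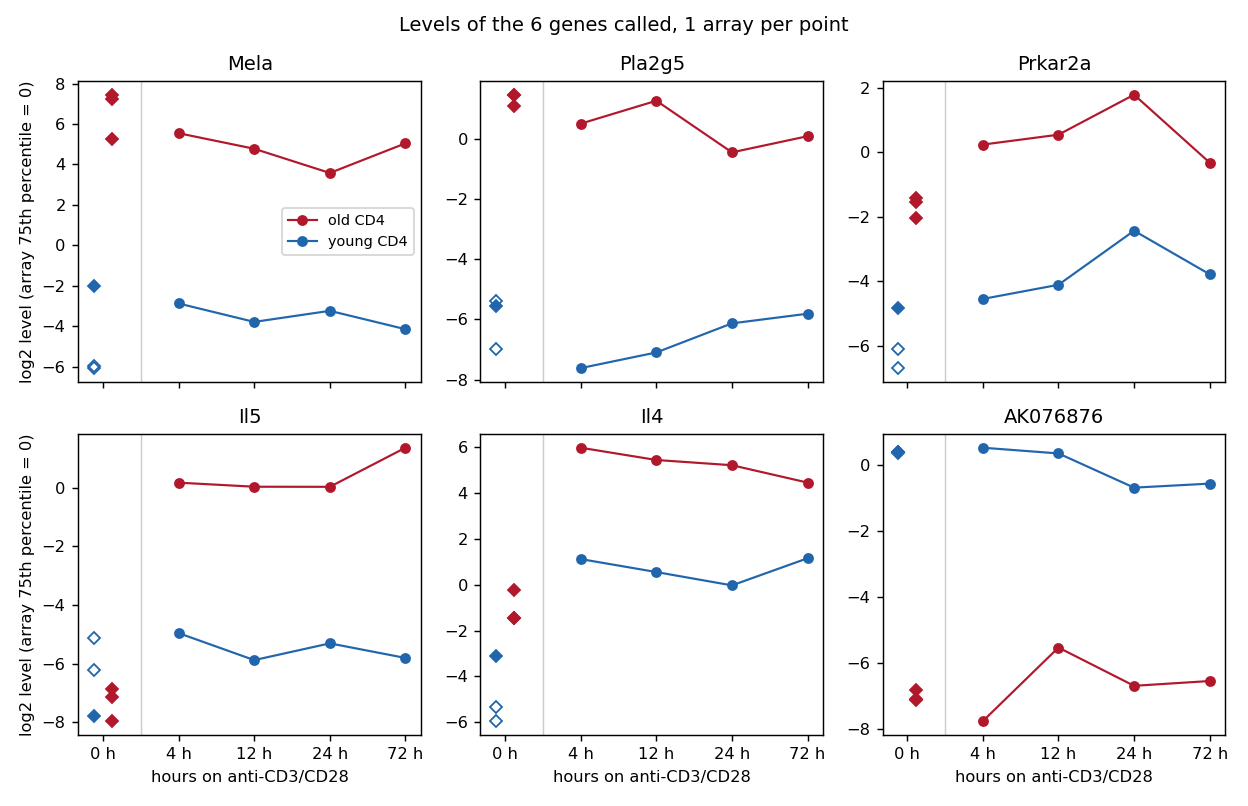
Level of the 6 genes called in the comparison of stimulated cells, in log2 relative to each array's 75th percentile (vertical axis), against hours on anti-CD3/CD28 (horizontal axis, evenly spaced). Each point is 1 array, red old and blue young; diamonds are the 0 h arrays and open diamonds the young 0 h replicates 1 and 2, whose sex-linked transcripts stood apart. For Il4, from 4 h on, old lies at 4.45 or above and young at 1.15 or below.

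Il4, Il13 and Il5 lie together on chromosome 11, and the arrays measured their neighbours too. In gene order, Kif3a differed by 0.80, Il4 by 4.57, Il13 by 1.63, Rad50 by -0.14, Il5 by 5.88 and Irf1 by 0.46, so the 3 cytokine genes had the widest differences of the 6, while Rad50, which lies between Il13 and Il5, differed by less than its standard error of 0.29. Rad50, a DNA repair gene, is known to hold the locus control region of this cluster. Il13, which drives mucus production, measured -2.71, -1.59, -2.04 and 0.50 in old and -3.58, -2.59, -4.30 and -1.89 in young; it was higher in old in all 4 pairs, by 1.63 ± 0.38, and did not pass (limma adjusted p 0.412). The probes, in build mm7, lie at chr11:53569331-53569390 for Il4, chr11:53588819-53588878 for Il13 and chr11:53681600-53681659 for Il5.

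The sequence just upstream of these genes and of Il9 is shown because the 4 cytokine mRNAs were higher in old at every time. The windows are the 150 bases before the start site that RefSeq lists, in build GRCm38.p6, read 5′ to 3′ on the strand of the gene. Capitals mark GGAAA on either strand (TTTCC when read on the gene's strand), the core bound by NFAT and other factors, and TGANTCA, the AP-1 site. They also mark AGATAA on either strand, 1 form of the GATA site. Other forms were not searched and are not marked. The windows are chr11:53618666-53618815 (minus strand) for the more upstream of the 2 starts listed for Il4, chr11:53634703-53634852 (minus) for Il13, chr11:53720644-53720793 (plus) for Il5 and chr13:56482258-56482407 (minus) for Il9.
Il4: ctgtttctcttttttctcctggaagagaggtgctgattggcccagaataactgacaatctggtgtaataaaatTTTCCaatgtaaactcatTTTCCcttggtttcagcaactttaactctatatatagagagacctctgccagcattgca
Il13: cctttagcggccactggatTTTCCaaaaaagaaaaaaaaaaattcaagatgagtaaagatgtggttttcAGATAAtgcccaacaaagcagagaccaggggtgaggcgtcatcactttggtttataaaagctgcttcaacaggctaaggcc
Il5: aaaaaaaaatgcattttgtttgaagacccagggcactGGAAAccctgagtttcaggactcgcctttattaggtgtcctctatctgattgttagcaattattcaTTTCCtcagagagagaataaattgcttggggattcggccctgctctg
Il9: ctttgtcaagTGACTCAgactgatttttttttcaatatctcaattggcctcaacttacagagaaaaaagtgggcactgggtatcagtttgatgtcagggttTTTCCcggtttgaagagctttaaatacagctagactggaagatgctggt
GGAAA occurred in all 4 windows, 2 times in those of Il4 and Il5 and 1 time in those of Il13 and Il9, and in 37.6 percent of all 32851 listed windows of this length. The AP-1 site occurred in the Il9 window only, against 4.24 percent of all windows, and AGATAA in the Il13 window only, against 5.65 percent. The window of the other Il4 start held none of the 3. These are matches of letters, and no binding was measured.

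The cytokine list as a whole leaned towards old cells until 24 h and no longer did at 72 h. Of 30 cytokine genes tested, 2 passed higher and 0 lower. Of the 27 with all 4 pairs, 11 were higher in old at every time and 0 lower, where 8.91 percent of all genes were higher and 6.27 percent lower at every time. The median difference of the list was 0.89 at 4 h, 0.99 at 12 h, 1.63 at 24 h and 0.13 at 72 h, while the median of all genes tested was -0.18, 0.14, 0.21 and 0.026. The number of cytokine genes at least 2-fold higher in old was 14 of 30 at 4 h and 20 of 30 at 24 h, with at most 1 lower. At 72 h it was 9 higher and 7 lower of 27. Of all genes, 6.72 percent were at least 2-fold higher at 4 h and 10.7 percent at 24 h. At 72 h 17.4 percent of all genes were at least 2-fold higher and 11.8 percent lower.

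Il10, which restrains immune responses, measured -0.68, 0.34, 1.10 and 3.86 in old cells and -2.92, -2.58, -2.88 and -2.47 in young. The young level lay between -2.92 and -2.47 at all 4 times, and the old level was higher at each later time, so that the old minus young difference read 2.24, 2.92, 3.98 and 6.33. Its mean of 3.87 ± 0.65 did not pass (limma adjusted p 0.198). Il9, a growth factor of mast cells, measured 0.50, 1.10, 2.25 and -0.34 in old and -3.93, -1.96, -0.28 and -3.88 in young, 3.39 ± 0.38 higher (adjusted p 0.127). Penk, which encodes the opioid precursor proenkephalin, measured 5.17, 4.96 and 4.18 in old at 4, 12 and 24 h against 2.01, 2.08 and 0.87 in young, and its flagged old spot at 72 h leaves 3 pairs (3.12 ± 0.35, adjusted p 0.143). Csf1, the macrophage growth factor, was 2.04 higher on average with a range over the pairs of 1.63 to 3.09. Il9, Il13, Penk and Csf1 were singled out after their values were seen.

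**Figure D2:**
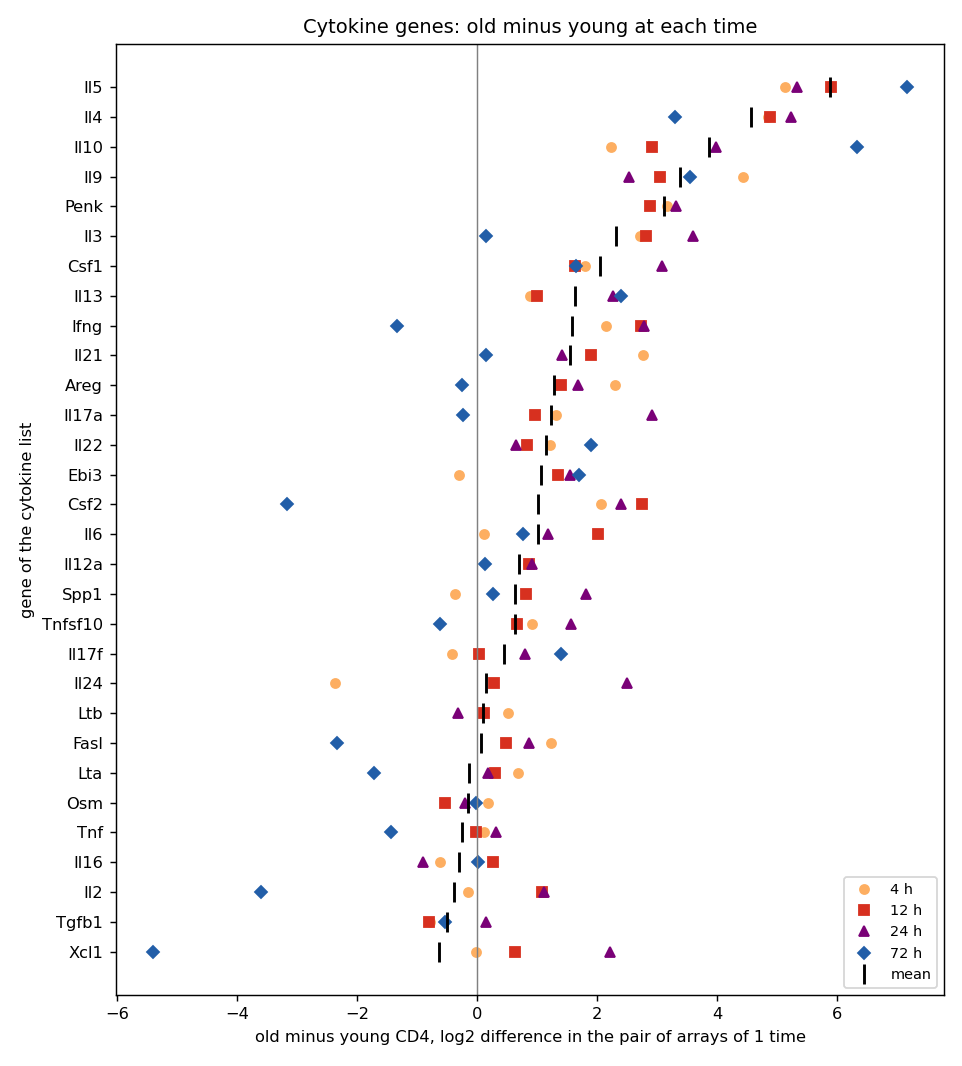
Old minus young difference in log2 (horizontal axis) of each tested gene of the cytokine list (vertical axis), 1 point for each time and a bar for the mean. Il5, Il4, Il10 and Il9 lie to the right of 0 at every time, while the 72 h points of Il2, Csf2 and Ifng lie to the left of 0, at -3.61, -3.17 and -1.34.

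Some other cytokine genes had no common sign over the 4 pairs or only a small difference at 72 h. Ifng, the type 1 effector cytokine, measured 5.83, 7.48, 6.61 and 2.42 in old and 3.68, 4.75, 3.83 and 3.76 in young, so the old cells stood 2.15 to 2.77 above the young until 24 h and differed by -1.34 at 72 h. Csf2, which encodes the myeloid growth factor GM-CSF, differed by 2.07, 2.75, 2.41 and -3.17, and Il3, another myeloid growth factor, by 2.72, 2.82, 3.60 and 0.14. Il2, the main T cell growth factor, measured 3.80, 5.12, 3.74 and -3.08 in old and 3.95, 4.04, 2.62 and 0.53 in young, with the widest gap at 72 h and the young cells above. Tnf, the inflammatory cytokine, differed by 0.12, -0.012, 0.31 and -1.43. None of these passed: limma's adjusted p over the 4 pairs was 0.768 for Ifng, 0.914 for Csf2, 0.448 for Il3, 0.964 for Il2 and 0.948 for Tnf. Without the 72 h pair the mean difference of Il2 was 0.68 and that of Tnf 0.14, both of the opposite sign to the mean over 4 pairs. Csf2 and Il3 were singled out after their values were seen, and 72 h rests on 1 array of each age.

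**Figure D3:**
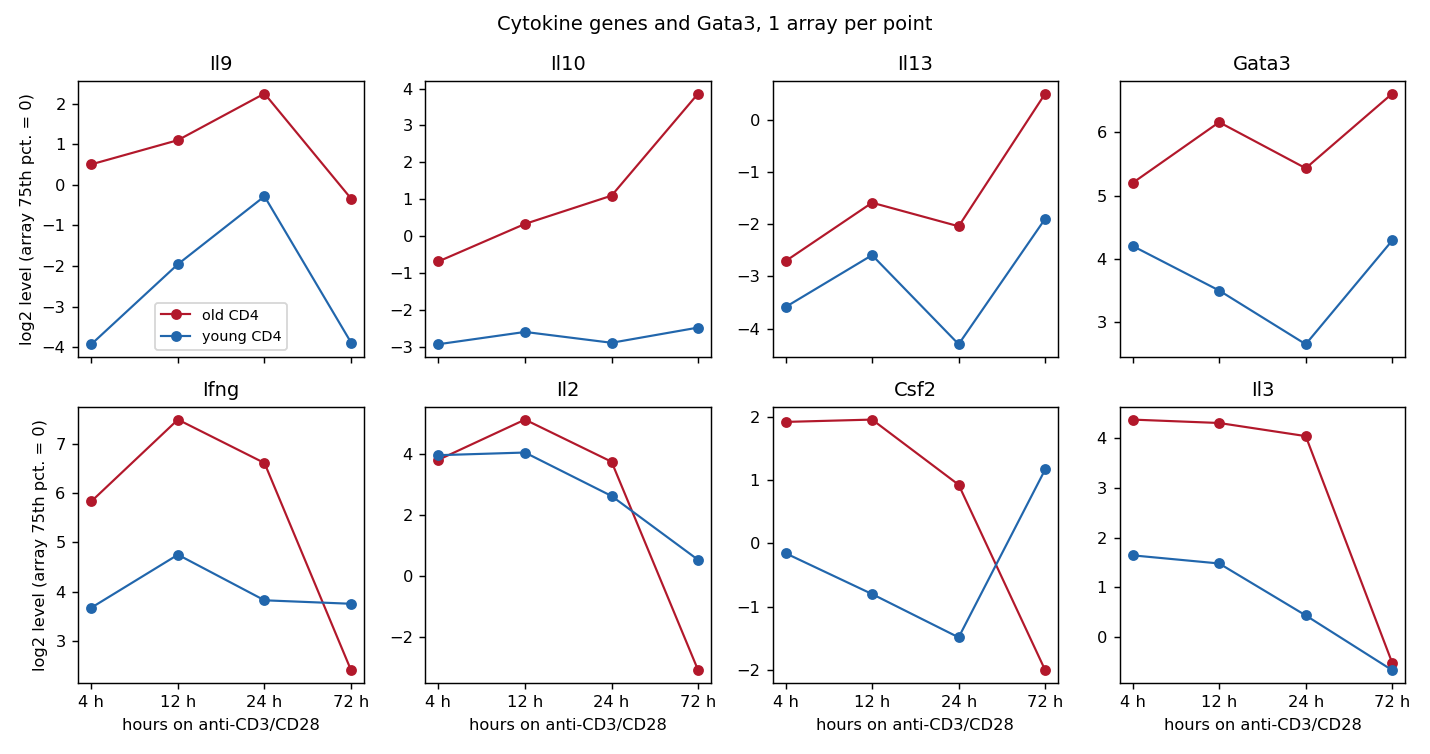
Level of 7 cytokine genes and of the transcription factor gene Gata3 in log2 relative to each array's 75th percentile (vertical axis, a scale of its own in each panel) against hours on anti-CD3/CD28 (horizontal axis, evenly spaced), red old and blue young, 1 array per point. The upper 4 genes are higher in old at every time; of the lower 4, Ifng, Il2 and Csf2 cross before 72 h, and Il3 meets at -0.52 in old and -0.66 in young.

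Chemokines and their receptors were the list with the highest median difference, 1.25. None of its 24 tested genes passed. Of the 20 with all 4 pairs, 9 were higher in old at every time and 1 lower. Among the ligands, Ccl1, which acts on the receptor Ccr8, measured 1.05, 2.15, 1.70 and -2.24 in old and -1.95, -0.089, -3.03 and -5.18 in young (3.23 ± 0.45, limma adjusted p 0.143). Ccl17, a ligand of Ccr4, measured -2.18, -1.98, -2.27 and -4.07 in old and -4.22, -4.22, -4.74 and -5.61 in young, 2.07 higher, and was above background on 3 old and 2 young arrays. Ccl5, which effector and memory T cells release, measured 3.29, 4.30, 2.33 and 2.98 in old and 2.94, 1.69, 0.73 and 5.15 in young, above in old until 24 h and below at 72 h. Among the receptors, Ccr2, found on effector and memory cells, was higher in old by 1.49 to 2.90 over the pairs (2.33 ± 0.34, adjusted p 0.143). Ccr4, typical of type 2 and skin-homing cells, was higher by 1.17 to 3.31, and its adjusted p was 0.237. Ccl17 and Ccr4 were singled out after their values were seen.

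Among receptors that restrain T cells, 4 of 15 were higher in old at every time, 2 were lower, and none passed. Cd200r1, the receptor of Cd200, measured 0.69, -1.28, -2.99 and 0.44 in old and -2.60, -4.01, -5.18 and -4.34 in young (3.25 ± 0.46, limma adjusted p 0.143). Havcr2, which encodes Tim-3, measured 0.63, -0.73, -1.79 and 0.23 in old and -1.95, -3.67, -4.78 and -1.58 in young (2.58 ± 0.33, adjusted p 0.143). Each was higher in old by at least 1.82 in every pair. On the young arrays Cd200r1 was above background at 4 and 12 h only, and Havcr2 at 4, 12 and 72 h, so the other differences were read against background. Pdcd1, which encodes PD-1, went another way: it differed by -0.047, -0.21, 0.48 and -2.30, and by 0.072 on average without the 72 h pair. Of the cytokine receptor list, 4 of 29 genes were higher and 4 lower at every time. The member with the highest mean difference was Il1rl1, the interleukin 33 receptor of type 2 and regulatory cells, which measured 2.09, 1.40, 0.48 and 0.20 in old and 0.47, -1.22, -3.76 and -4.19 in young (3.22 ± 0.52, adjusted p 0.197). The Il1rl1 difference read 1.62 at 4 h and 4.39 at 72 h, with the level lower at each later time in both ages. Young Il1rl1 was above background at 4 and 12 h only, so the width of the gap at 24 and 72 h was not measured. Il7r, the interleukin 7 receptor, was higher by 0.37 to 1.92.

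Of 25 transcription factors of the helper lineages tested, none passed, and of 20 with all pairs 5 were higher and 2 lower in old at every time. Gata3, the type 2 regulator, measured 5.20, 6.16, 5.43 and 6.61 in old and 4.20, 3.50, 2.65 and 4.29 in young, 2.19 ± 0.39 higher (limma adjusted p 0.218); it was chosen after its values were seen. Prdm1, which encodes the effector regulator Blimp-1, measured 0.30, -0.014, 0.73 and 2.58 in old and -1.26, -1.84, -1.82 and -0.82 in young, 2.33 ± 0.39 higher (adjusted p 0.198). Id3, an inhibitor of E proteins kept high in naive and memory precursor cells, lay below young at every time, at -1.86, 0.030, -0.22 and -1.90 against 1.18, 1.22, 1.52 and 1.89 (-2.44 ± 0.48, adjusted p 0.276). Foxp3, the regulator of regulatory T cells, differed by 0.32, -1.02, 0.74 and -1.73, with no common sign. The regulatory T cell list had 4 of 13 genes higher and 0 lower at every time, Il10 and the ectonucleotidase gene Entpd1 (1.90) among them.

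The memory and effector list had a median above 0 and the naive list one below 0, with no call in either. Of 37 memory and effector genes with all pairs, 8 were higher at every time and 0 lower, with a median of 0.50 over the 44 tested; the B cell markers above moved the same way. Gzmk, a granzyme of memory-phenotype cells, measured -1.37, -1.39, -5.11 and -3.55 in old and -5.61, -6.28, -6.15 and -4.68 in young, where no array was above background. That makes it at least 3.22-fold higher in old, and it did not pass (limma adjusted p 0.468). Such a bound sets the mean of the bright group against, array by array, the dimmest signal that was well above background or the gene's own where that was higher. Gzmb, the granzyme induced by activation, was higher at each later time in both ages, at 2.39, 4.18, 5.28 and 7.88 in old and 1.42, 3.54, 5.32 and 8.01 in young. Of 26 naive and quiescence genes, 6 were lower in old at every time and 4 higher, with a median of -0.31. By time the naive list's median was -0.38, -0.64, -0.036 and -0.069, so it was near 0 at 24 and 72 h. Dapl1, a transcript of naive T cells, measured -1.32, 0.11, 1.47 and -1.20 in old and 0.52, 1.54, 2.17 and 2.34 in young (-1.87 ± 0.48, adjusted p 0.468), and Nsg2 differed by -3.34 to -0.99 with a mean of -1.85.

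None of the standard activation genes passed between the ages, though single times differed. Cd69, the early activation antigen, measured 5.94, 3.42, 1.92 and 2.51 in old and 6.02, 4.21, 3.76 and 3.10 in young, highest at 4 h in each. Il2ra, the high-affinity chain of the interleukin 2 receptor, differed by 0.36, -0.12, 0.024 and 0.91. Myc, which drives growth, differed by 0.11, 0.14, 0.20 and -0.53, and Cd44, a marker of activated and memory cells, by 1.17, 0.54, 0.84 and -0.24. Cd40lg, which delivers help to B cells, differed by -0.85 on average. The mean differences with their standard errors were -0.82 ± 0.37 for Cd69, 0.29 ± 0.31 for Il2ra, -0.018 ± 0.30 for Myc, 0.58 ± 0.34 for Cd44 and -0.58 ± 0.32 for Cd4 itself. Of the immediate early transcription factors 3 of 24 were higher and 1 lower at every time, with Atf3 at 1.55 and Ier3 at 1.51. The counts were 7 and 1 of 26 for the receptor complex and its proximal signalling, 5 and 3 of 26 for negative feedback genes, and 1 and 4 of 27 for the NF-kB pathway. For activation surface proteins and costimulatory receptors they were 2 and 2 of 19. In the feedback list Rnf128, the ubiquitin ligase of anergic cells, stood 2.05 higher and the Ras pathway inhibitor Spry1 differed by -1.10, and neither passed.

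The other 4 genes called were not cytokines. They differed before stimulation too, as did Il4, by 3.76 at rest, while Il5 was below background on every resting array. Mela, an endogenous retroviral transcript first described as a melanoma antigen, measured 5.54, 4.77, 3.57 and 5.04 in old and -2.88, -3.79, -3.24 and -4.15 in young, a difference of 8.25 ± 0.43 (SE, n = 4 pairs), 304-fold (limma adjusted p 0.00597). At 0 h it differed by 11.33 over 3 arrays of each age and by 7.26 in the replicate 3 pair, and in stimulated CD8 cells by 11.53. As an endogenous retroviral sequence it has near-identical copies, and which copy the probe, at chr8:122067110-122067169 in mm7, reads cannot be told from the array. Pla2g5, a secreted phospholipase, measured 0.50, 1.26, -0.46 and 0.082 in old and -7.62, -7.10, -6.13 and -5.81 in young, where no array was above background, at least 29.7-fold higher in old (7.01 ± 0.55, adjusted p 0.0177). At rest its difference was 7.32, 6.67 in the replicate 3 pair, and in CD8 cells 5.83. Under normexp background correction Mela differed by 6.21 and Pla2g5 by 2.77, and both passed. The 304-fold ratio and the 29.7-fold bound therefore belong to the main processing. Prkar2a, a regulatory subunit of protein kinase A, measured 0.23, 0.54, 1.78 and -0.32 in old and -4.54, -4.10, -2.43 and -3.78 in young (4.27 ± 0.34, adjusted p 0.0177). Its 4 probes gave mean differences of 4.27, 4.13, 1.71 and 0.91, and the 2 lowest were above background on at most 1 of the 8 arrays. At rest Prkar2a differed by 4.20, 3.26 in the replicate 3 pair, and in CD8 cells by 4.53.

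AK076876, a testis cDNA clone of no named gene that was singled out as the 1 gene called lower, measured -7.75, -5.52, -6.68 and -6.54 in old, where no array was above background, and 0.53, 0.36, -0.68 and -0.55 in young. It was at least 19.9-fold lower in old (-6.54 ± 0.47, limma adjusted p 0.0169). Under normexp background correction its difference was -2.49 and passed, so the bound belongs to the main processing. With the log2 values that the authors deposited as a series matrix, AK076876 did not pass. At rest AK076876 was above background on 0 of 3 old and 3 of 3 young arrays. Its probe, at chr4:138269584-138269643 in mm7, lies beside that of Otud3, a deubiquitinase gene, at chr4:138273865-138273924. Otud3 was lower too, at -3.37, -1.77, -4.69 and 0.84 in old and 1.99, 2.35, 1.56 and 2.20 in young (-4.27 ± 0.76, adjusted p 0.221), and by -4.44 at rest, -3.04 in the replicate 3 pair. The Pla2g5 probe lies on the same stretch of chromosome 4, at chr4:138177891-138177950, so neighbouring probes differed in opposite directions in every pair. The other tested genes of that neighbourhood differed less: Pla2g2f by 0.20, Tmco4 by -0.054, Nbl1 by -0.56 and Micos10 by -0.86. Acads, a mitochondrial fatty acid oxidation enzyme noticed after the values were seen, was also lower in old in every pair. It measured -5.01, -3.05, -2.83 and -1.65 in old and -2.98, 0.60, 0.96 and 1.46 in young. Its difference was -3.15 ± 0.38 (limma adjusted p 0.143), and at rest -3.01, -3.39 in the replicate 3 pair.

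Among 14360 genes with all 4 pairs, 1280 were higher in old in every pair (8.91 percent) and 901 lower (6.27 percent). At least 2-fold apart in every pair were 83 higher (0.578 percent) and 27 lower (0.188 percent). Among genes with a symbol that were above background on all 8 arrays, those outside the cytokines with the largest smallest-of-4 difference were Slc25a40, a mitochondrial carrier, higher by 2.10 to 2.83, and Sntb2, a syntrophin, which measured 1.01, 1.01, 1.18 and 1.10 in old and -1.65, -1.35, -0.89 and -0.98 in young. Gpm6b, a membrane proteolipid, was higher by 1.90 to 3.53, and Myo1d, an unconventional myosin, by 1.84 to 2.95. None of these passed, with a limma adjusted p of 0.143 for each of the 4. On the lower side stood Arhgef18, a guanine nucleotide exchange factor, at -1.17, -0.11, -1.81 and -1.94 in old and 0.78, 1.17, 0.92 and 1.16 in young, and Macroh2a1, a histone variant, at 2.14, 1.42, 1.73 and 0.94 in old and 3.34, 4.17, 4.44 and 3.72 in young. Their mean differences were -2.26 ± 0.38 and -2.36 ± 0.38, with adjusted p 0.198 and 0.195. The others were Id3 (-2.44), the alcohol dehydrogenase gene Adh1 (-2.10), Bdh2 (-1.46), Sestd1 (-1.80), the leukocyte actin-binding gene Lsp1 (-1.32), Nsg2 (-1.85), Lypd6b (-1.87) and Gata1 (-1.27), with adjusted p from 0.276 for Id3 to 0.499 for Lypd6b.

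Casp1 and Casp4, caspases of inflammation and pyroptosis, were higher in old in each of the 4 pairs, and neither passed. Casp4 measured 5.41, 6.12, 5.82 and 5.88 in old and 3.18, 3.27, 2.99 and 4.97 in young (2.21 ± 0.41, limma adjusted p 0.237). Casp1 measured 3.45, 1.45, 1.70 and 2.39 in old and 0.97, -0.50, -0.78 and 1.36 in young (1.99 ± 0.35, adjusted p 0.224). At rest Casp4 differed by 2.73 and Casp1 by 3.16, and in the replicate 3 pair by 2.48 and 3.16. Of the apoptosis regulators as a list, 5 of 30 were higher and 1 lower at every time. Srxn1, which reactivates peroxiredoxins, was higher by 1.25 to 2.76, in an antioxidant list with 4 of 25 higher and 1 lower. Of the p53 and senescence genes 4 of 28 were higher and 1 lower. In that list Cdkn2b, the cell cycle inhibitor p15, was higher by 0.51 to 2.82, while Cdkn1a, the inhibitor p21, differed by -0.72, -0.29, 1.67 and 0.60.

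The medians of several lists were above 0 at 24 h and below 0 at 72 h. Of 57 mitosis genes 47 were higher in old at 4 h and 46 of 54 at 24 h, but 7 of 50 at 72 h, when 27 were at least 2-fold lower in old. Of all genes, 11.8 percent were at least 2-fold lower in old at 72 h. The mitosis list's median difference was 0.43, 0.49, 0.55 and -1.07 in order of time, and that of all genes -0.18, 0.14, 0.21 and 0.026. Only Aurka, a mitotic kinase, was higher in old at every time, by 0.26 to 0.93. Of the DNA replication genes 38 of 46 were higher at 24 h and 7 of 47 at 72 h, with a median of 0.39 and then -0.83. Ribosome biogenesis genes had medians of 0.012, -0.096, 0.31 and -0.72 in order of time, with 10 of 64 higher at 72 h. The G1 cyclins and cell cycle inhibitors went from 0.73 at 24 h to -0.28 at 72 h, with 3 of 22 higher and 2 lower at every time, and the histone genes had medians of -0.40, 0.21, 0.32 and -0.62 in order of time, with 1 and 1 of 15. No gene of these 5 lists passed in the comparison over 4 pairs, and each time rests on 1 array of each age.

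The median of the interferon response genes, which cells switch on upon sensing type I or type II interferon, was above 0 at 4 and 12 h and below 0 later. At 4 h 44 of 47 were higher in old, with a median of 0.82 where all genes had -0.18. The median was 0.11 at 12 h, -0.23 at 24 h and -0.84 at 72 h, when 11 of 42 were higher. Over the 4 pairs 4 of 39 were higher at every time and 0 lower. Cxcl10, an interferon-induced chemokine, measured 4.65, 2.14, -1.11 and -3.17 in old against 2.95, -0.00048, -1.73 and -3.68 in young. Ly6a, which encodes Sca-1, was higher in old by 0.68 to 2.77. Neither passed, at limma adjusted p 0.588 for Cxcl10 and 0.409 for Ly6a.

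**Figure D4:**
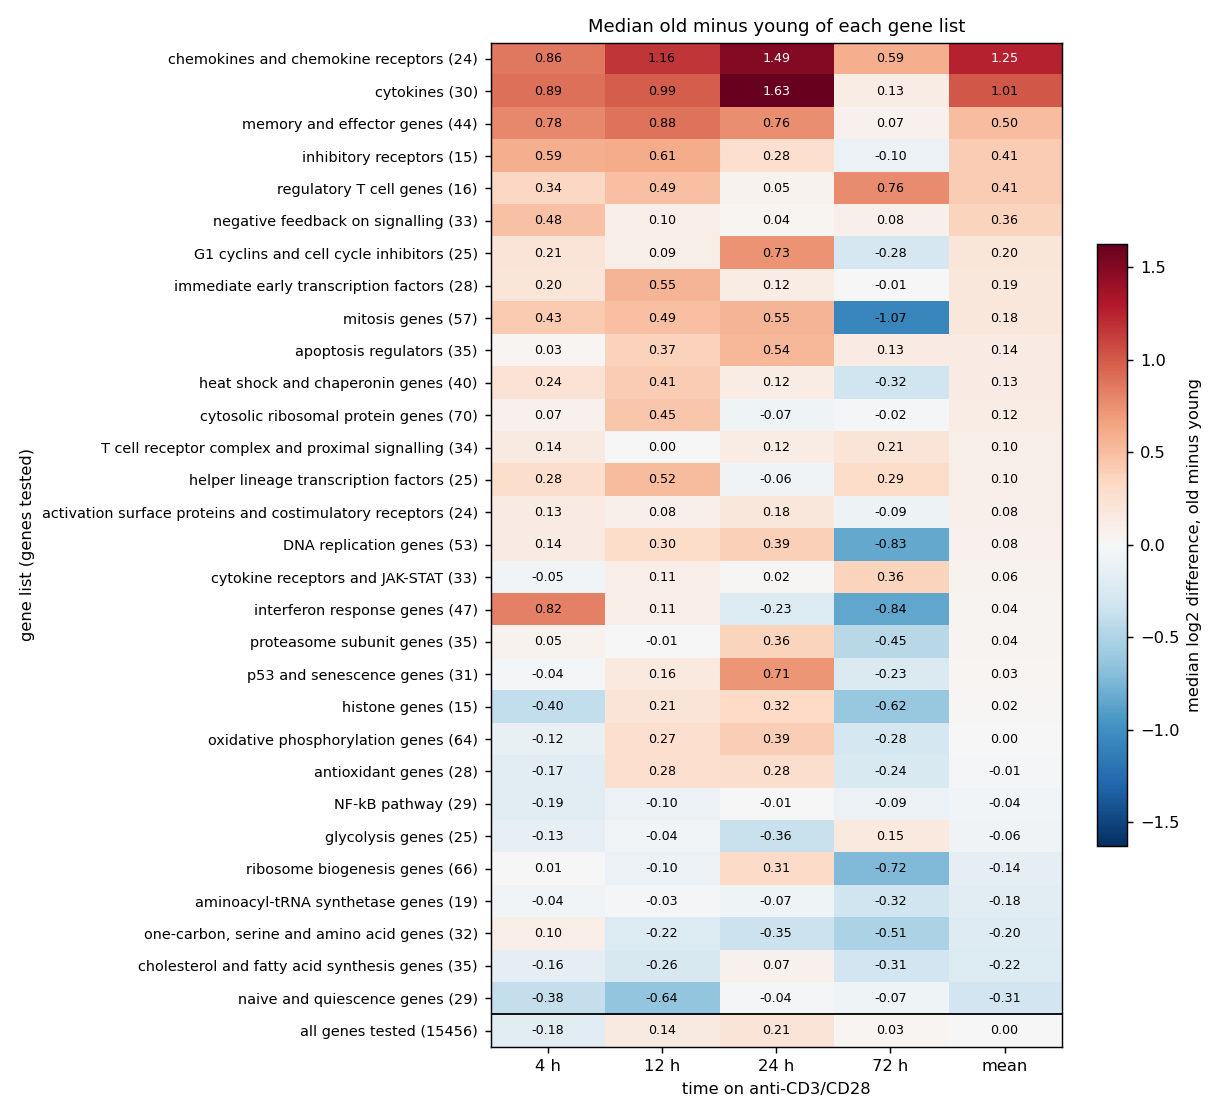
Median old minus young difference in log2 (colour and printed value) of each gene list (vertical axis, genes tested in parentheses) at each time on anti-CD3/CD28 and over the mean of the 4 times (horizontal axis), with all genes tested as the bottom line. Chemokines, cytokines and memory genes are above 0.7 from 4 to 24 h; mitosis genes turn from 0.55 at 24 h to -1.07 at 72 h.

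No gene of the lists of metabolism and protein synthesis passed. Over the 4 pairs the median was -0.058 for glycolysis, with 2 of 21 genes higher and 1 lower at every time, and 0.0021 for oxidative phosphorylation, with 3 and 2 of 46. One-carbon, serine and amino acid genes had 5 of 27 lower and 0 higher, the proline synthesis gene Pycr1 among them at -0.89; the list's median was -0.20 over the pairs and -0.51 at 72 h. Lipid synthesis genes had 4 of 28 lower and 0 higher, with a median of -0.22 and the sterol enzyme gene Lss at -0.73. Aminoacyl-tRNA synthetase genes had 2 of 16 lower, proteasome genes 2 of 28, and neither had any higher at every time. The synthetase median was -0.18, with 1 of 18 higher at 72 h, and the proteasome median went from 0.36 at 24 h to -0.45 at 72 h, when 3 of 31 were higher. For cytosolic ribosomal protein genes the counts were 2 higher and 2 lower of 46, with a median of 0.45 at 12 h, and for chaperones 3 and 4 of 33.

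At single times each value is that of 1 array pair, with no replicate check, and the genes named here are the 3 furthest apart in each direction among those with a gene symbol and above background on both arrays of the pair. That limit leaves out Pla2g5 and AK076876 at every time, Il5 from 12 h on and Mela at 72 h. At 4 h the genes most above young were Mela, Il5 and Il4, and at 12 h Mela, Il4 and Ccl24, a chemokine for eosinophils (4.76 by 1 probe and 3.72 by another). At 24 h they were Mela, Il4 and Ccl1, and at 72 h Il10 (6.33), the granzyme gene Gzma (5.82) and the signal peptidase gene Sec11c (5.57). Other probes of several of the genes most below young read otherwise. At 24 h the ribosomal protein genes Rps24 and Rpl27 read -11.4 and -8.92 and Hirip3 -8.95, yet the 2 other probes of Rps24 read 0.13 and -0.55. Among bright probes spotted 10 times, 11 of 820 spots on the old 24 h array lay under 1/8 of their probe's median, against 0 to 4 on each of the other 7 arrays; the part of such spots in these values was not tested. Tnfrsf18, which encodes the costimulator GITR and was noticed after its values were seen, read -6.35 in old at 24 h and 7.18 to 8.02 at the other 3 times, and its mean of -4.37 was 0.29 without the 24 h pair. At 12 h Psmd3 (-5.67), 9530053A07Rik (-5.10) and Pigt (-4.76, by another probe 1.53) were most below, and at 4 h Otud3 (-5.36), Rusc1 (-4.35, by another probe -0.37) and Khsrp (-4.25, by another -0.40). At 72 h they were Pdcl3 (-4.67, by another probe 0.82), Snapc1 (-4.66, by the other above background 1.62) and Ccdc93 (-4.65).

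Whether the age difference grew or shrank upon stimulation was asked by setting the difference over the 4 pairs against that of the 6 resting arrays. None of 18164 genes passed (0 percent called), with 445 at an unadjusted p under 0.05 and a smallest limma adjusted p of 0.279. That smallest value belonged to Il5, for which all 6 resting arrays were below background and which differed by -0.95 at rest, -0.18 in the replicate 3 pair, and 5.88 after stimulation, a contrast of 6.83 ± 0.85 (SE). With the slide of the 0 h arrays as a block Il5 passed, at an adjusted p of 0.0245, and without the young 0 h replicates 1 and 2, 0 genes passed. Without the 4 h pair 1 gene passed, Arpc2, and without the young 0 h replicate 3 there were 3: Il5, Cfb and Xist. This last setting leaves, of the young 0 h arrays, only replicates 1 and 2, whose sex-linked transcripts stood apart. Il9 and Edn1 were above background on 0 of the 6 resting arrays and Ccl1 on 1, so their difference at rest was not measured, while after stimulation they differed by 3.39, 3.84 and 3.23. Il4 was above background on all 3 old and 1 of the 3 young resting arrays, with a difference of 3.76 over all of them and 2.88 in the replicate 3 pair. Edn1, which encodes the vasoconstrictor endothelin 1, was chosen after its values were seen.

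Most of the genes steadily higher in stimulated old cells were also higher at rest. Of the 83 genes at least 2-fold higher in every stimulated pair, 53 were at least 2-fold higher at 0 h, where 4.96 percent of all genes were, and 58 in the replicate 3 pair, where 10.1 percent of all genes were. Of the 27 lower genes, 9 were at least 2-fold lower at 0 h (4.44 percent of all genes) and 17 in the replicate 3 pair (13.3 percent). The median difference at rest was 0.041 for the cytokine list, 0.68 for chemokines and 1.13 for memory and effector genes. At rest Sntb2 differed by 3.55 (3.35 in the replicate 3 pair), Havcr2 by 2.82 (1.53), Ccr2 by 2.86 (2.57) and Gzmk by 5.66 (3.81). Gata3 differed by 0.36 (0.26) and Arhgef18 by -0.67 (-1.01).

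**Figure D5:**
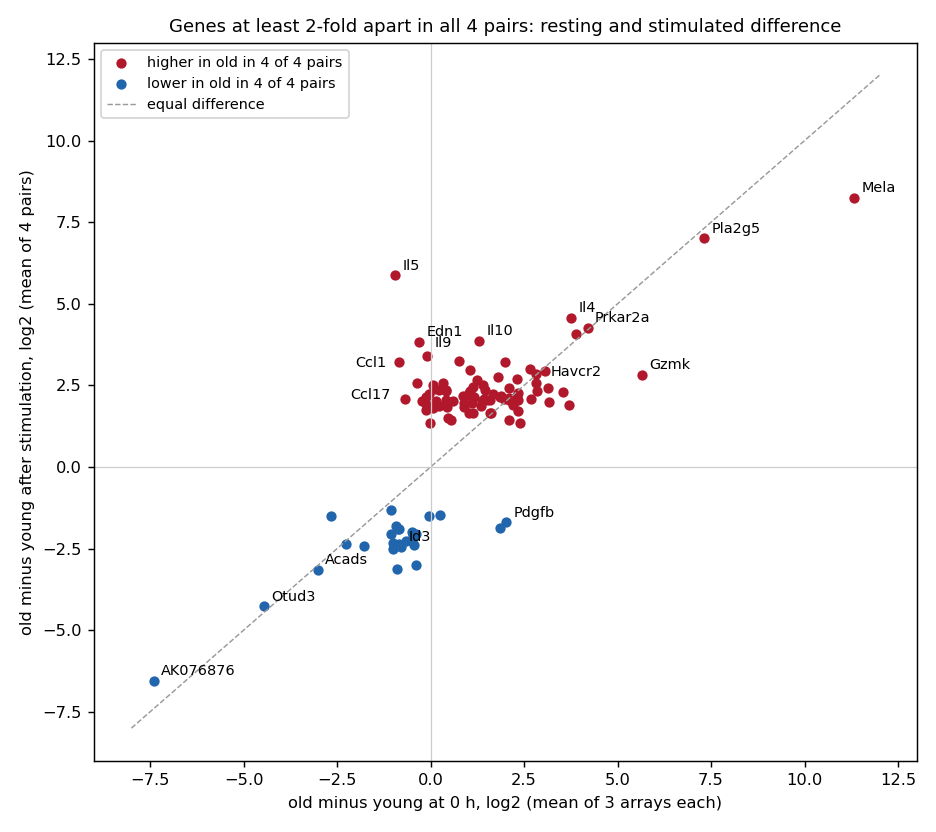
Old minus young difference in log2 after stimulation (vertical axis, mean of 4 pairs) against the same at 0 h (horizontal axis, means of 3 arrays of each age) for the genes at least 2-fold apart in all 4 stimulated pairs, red higher and blue lower in old, with the line of equal difference. The vertical positions were fixed by the choice of genes; Il5, Il9, Edn1, Ccl1 and Ccl17 lie left of 0 on the horizontal axis, where Il5, Il9 and Edn1 were on 0 arrays above background, and Mela, Pla2g5, Prkar2a, Otud3 and AK076876 lie near or beyond the line.

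CD8 T cells of the same ages, stimulated for the same times, shared many of these differences. Of the 83 genes 53 were at least 2-fold higher in old CD8 cells on average (2.6 percent of all genes), and of the 27 lower genes 14 were at least 2-fold lower (5.69 percent). None of 17450 genes passed a test of the age difference in CD8 minus that in CD4 cells (0 percent called), with 791 at an unadjusted p under 0.05. Il4 differed by 4.18 in CD8 cells and 4.57 in CD4 cells, Il9 by 4.02 and 3.39, and Penk by 4.44 and 3.12. Il5 differed by 0.25 in CD8 and 5.88 in CD4, a contrast of -5.64 ± 0.99 with a limma adjusted p of 0.447. Edn1 read 0.013 in CD8 cells and Il13 0.023. The smallest adjusted p, 0.054, was that of Enox1, a cell surface oxidase, which differed by 1.76 in CD4 and by -1.83 in CD8 cells. Scaling each array to its median in place of its 75th percentile shifted the median contrast from -0.063 to 0.22 and gave 6 calls, with Il5 and the matrix protease gene Mmp14 (0.97 in CD4, -2.72 in CD8) on the lower side. Enox1 and Mmp14 were singled out after their values were seen.

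A slope of the age difference on the rank of time asked whether it drifted from 4 to 72 h, and none of 15186 genes passed (0 percent called), with 1751 at an unadjusted p under 0.05 and a smallest limma adjusted p of 0.263. The fit had 2 residual degrees of freedom per gene. Il10 had a slope of 1.33 ± 0.31 per step of time (adjusted p 0.263), and Il1rl1 one of 0.99 ± 0.30 (adjusted p 0.298). The Il1rl1 slope rests in part on the young arrays at 24 and 72 h, where the gene was not above background.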

How the data were processed

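Total RNA from sorted T cells was amplified, labelled with Cy3 and hybridised to 1-colour Agilent arrays, per the labels' protocols. The authors deposited Agilent Feature Extraction files (version 9.5.1.1 or 10.1.1.1 per the file headers) with processed intensity per spot, already background-corrected by that software, and a series matrix of log2 values deposited by the authors, used as an alternative. Here flagged and control spots were left out, repeated spots averaged, and log2 of each array's 75th percentile subtracted. Each gene was read by 1 probe, the brightest on average over the 28 arrays, and tested if above background on at least 3 arrays of the fit. Of the 41174 probes, 22951 were named by accession through RefSeq, 6659 by symbol and 3109 by synonym, and 8455 kept the file's name. Tests used limma 3.58.1 in R 4.3.3 with Benjamini-Hochberg adjustment over all genes, and were tested on simulated data. A bound ("at least") replaces a fold where 1 age was on no array above background. It refers to the main processing and can be passed under another background correction.

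Genes were named by rule: those called, those with the largest smallest-of-4 difference above background on all 8 arrays, up to 4 called or otherwise the top 2 steady members of each list, 22 genes always reported, and the 3 most extreme at each time. The comparison, the 30 gene lists and the 7 marker lists were chosen with earlier results of these data known, so a pattern in them is not independent support. At 0 h, replicates of the same number deviated together (r 0.476, 0.491 and 0.626), but they also share a slide, and different numbers on 1 slide did so too (0.470 and 0.508). Alternatives were other background corrections, scalings, filters, probe rules, variance models and left-out arrays. Some genes are not reported here.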

Additional observations from a re-analysis of the deposited data

How the results depend on the processing

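The count of 6 genes called between old and young stimulated CD4 cells was 71 with normexp background correction (50 higher and 21 lower). It was 29 with an intensity trend in the variance, and 29 when all 16 stimulated arrays shared 1 variance. With 1 time left out it was 0 to 4, and other settings gave 4 to 6. Quantile normalization gave 4, without Il5 and Prkar2a, and the series matrix 5, without AK076876. The count was 10 when a gene had to be above background on every array, and only 1 of these, Il4, was among the 6. Mela, Pla2g5, Il5, Prkar2a and AK076876 did not meet that filter and were not tested there. For the contrast with resting cells, 0 became 1 with quantile normalization (Pdgfb) and 1 with the slide as a block (Il5), and 0 to 3 with 1 array or time left out. With the replicate block at 0 h it was 0, and that block changed no call. Leaving out the young 0 h replicates 1 and 2, or all 0 h arrays but the replicate 3 pair, alternatives chosen after seeing the data, gave 0. For CD8 minus CD4, 0 became 6 with median scaling, and 1 with the mean of probes, with array weights and with the trend. The change over time went from 0 to 76 with normexp. Median scaling moved the median of all genes from 0.077 to -0.16 in that slope. Of 114 named results 105 kept their sign under every alternative run. Many of these genes were named because every pair shared a sign, so leaving out 1 time could not turn their mean. The count was thus partly fixed in advance. Hk1 turned to -0.33 with the mean of probes, and Il2 to 0.13 and Myc to 0.061 with array weights. With 1 time left out, the mean ran from -0.89 to 0.68 for Il2, -0.44 to 0.14 for Tnf, -0.092 to 0.15 for Myc, -0.076 to 1.52 for Ccl5, -0.81 to 0.010 for Foxp3, -0.85 to 0.072 for Pdcd1, -0.14 to 0.66 for Cdkn1a and -6.79 to 0.29 for Tnfrsf18. The cause was not tested. Normexp used the mean spot signal for the CD4 comparison and the median signal for the contrasts with resting and CD8 arrays, whose shorter files hold only that. The series matrix was not run for CD8 minus CD4, because 6 of its CD8 columns followed another time's array.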
